A study of Mus musculus with 12 samples.

Results

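The data compare liver RNA of Socs2-null mice with that of wildtype mice at 24 h after partial hepatectomy. All animals were adult C57BL/6 mice, and at 24 h both groups had undergone surgical removal of 2/3 of the liver. The comparison holds 4 of the 12 arrays of the series, the 2 labelled as Socs2 null mutants and the 2 labelled as controls at that time, and covers all 17097 genes that the array annotation names. Each array carries RNA pooled from 3 animals, so n = 2 pools in each group and p-values measure the spread between pools. The other 8 arrays hold the same genotypes at 0 h, without an operation, and at 36 h, and no sham-operated group was analysed here. The sources used here do not describe the null allele, the sex of the animals or the hour of harvest.

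SOCS2 is a suppressor of cytokine signalling that is induced by growth hormone and limits signalling from the growth hormone receptor through JAK2 and STAT5. In liver that pathway controls insulin-like growth factor 1, the sex-biased expression of many metabolic enzymes, and lipid handling. After partial hepatectomy the remaining hepatocytes leave quiescence and replicate their DNA while they continue to make plasma proteins and to hold up blood glucose.

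The values are array intensities, compared as log2(intensity + 16), and a log2 change is the Socs2-null mean minus the wildtype mean with its standard error. Adjusted p-values are from limma over all 17097 genes. Pearson's r between the arrays of a pair ran from 0.985 for the Socs2-null pools at 24 h to 0.995. Hybridization controls, transcripts added to each hybridization, averaged 9.90 and 9.63 on the log2 scale on the wildtype arrays and 9.34 and 9.72 on the Socs2-null arrays at 24 h. With their level as a covariate 4 genes passed the threshold instead of 2. A gene was taken as under background in a group when each of its arrays read below the brightest of 17 tag controls of that array, and the fold is then a lower bound. The number of arrays limits the precision of every value.

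Socs2 itself was read by 4 probe sets. The brightest read 306 and 116 on the wildtype arrays and 26.6 and 29.5 on the Socs2-null arrays, at least 5.19-fold lower and under background on both (log2 change -2.23 ± 0.42, adjusted p = 0.404). A second probe set read 157 and 60.5 against 18.5 and 37.8. In both cases the groups did not overlap, while the wildtype pools differed from each other by more than the Socs2-null pools did. Another read 64.3 and 62.9 against 67.6 and 56.2, and the last, near background, 30.0 and 21.7 against 18.6 and 27.5. The groups overlapped for both. Where the 4 probe sets lie relative to the change in the null allele is not given in the sources used here.

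Of the 17097 genes, 1 was higher and 1 was lower in Socs2-null liver at an adjusted p under 0.05, which is 0.00585% in each direction and 0.0117% in all. At an unadjusted p under 0.05, 617 genes (3.61%) had higher and 791 (4.63%) had lower means. Both Socs2-null arrays lay above both wildtype arrays for 15% of genes and below them for 19.1%, and 45.9% of genes had a higher mean in Socs2-null liver. The median log2 change over all genes was -0.017. With only the 4 arrays fitted, 0 genes passed in limma (887 at an unadjusted p under 0.05), so both calls use the spread of the other groups too. The count was also 0 without wildtype 0 h replicate 1 (1142), wildtype 0 h replicate 2 (1146) or wildtype 24 h replicate 2 (1156), with the number at an unadjusted p under 0.05 in brackets. Leaving out wildtype replicate 1 of 24 h gave 11, and leaving out the Socs2-null pools of 24 h in turn gave 15 for replicate 1 and 55 for replicate 2.

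Tff3, which encodes a secreted trefoil peptide of mucous epithelia, was the gene that was higher. It read 137 and 128 on the wildtype arrays and 349 and 310.1 on the Socs2-null arrays, a 2.32-fold difference (log2 change 1.22 ± 0.13, adjusted p = 0.0133). The Socs2-null values at 24 h lay near the unoperated wildtype values of 353 and 342, while unoperated Socs2-null liver read 446 and 559. At 36 h wildtype liver read 111 and 101, against 116 and 109.8 in Socs2-null liver. The level in Socs2-null liver was thus above wildtype on every array at 0 h and at 24 h, and the groups overlapped at 36 h. The related trefoil genes Tff1 and Tff2 stood at log2 changes of -0.21 and -0.15. Of 12 trefoil and mucosal secretory genes measured 6 were under background in both groups, and Tff3 alone passed the test. Over the alternatives tried its adjusted p ran from 0.0128 to 0.489.

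Selenbp2, which encodes a cytosolic selenium-binding protein that is more abundant in male mouse liver, was the gene that was lower. It read 4115 and 4030.1 in wildtype and 2206 and 2338 in Socs2-null liver, a 1.79-fold difference (log2 change -0.84 ± 0.090, adjusted p = 0.0133). At 0 h it read 9589 and 9152 in wildtype and 8971 and 9615 in Socs2-null liver, and at 36 h 2637 and 2414 against 2388 and 2478, with overlap at both times. The Socs2-null pools at 24 h thus lay just under the level that both genotypes had at 36 h. Over the alternatives tried its adjusted p ran from 0.00895 to 0.489. Its probe set is of a type that can bind related transcripts. The separate probe set of the neighbouring family member Selenbp1 read 1506 and 1554 against 955 and 883 (log2 change -0.73 ± 0.14, adjusted p = 0.317), and the groups did not overlap. The other 11 selenium-binding and selenoprotein genes measured stood between -0.26 and 0.17.

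**Figure D1:**
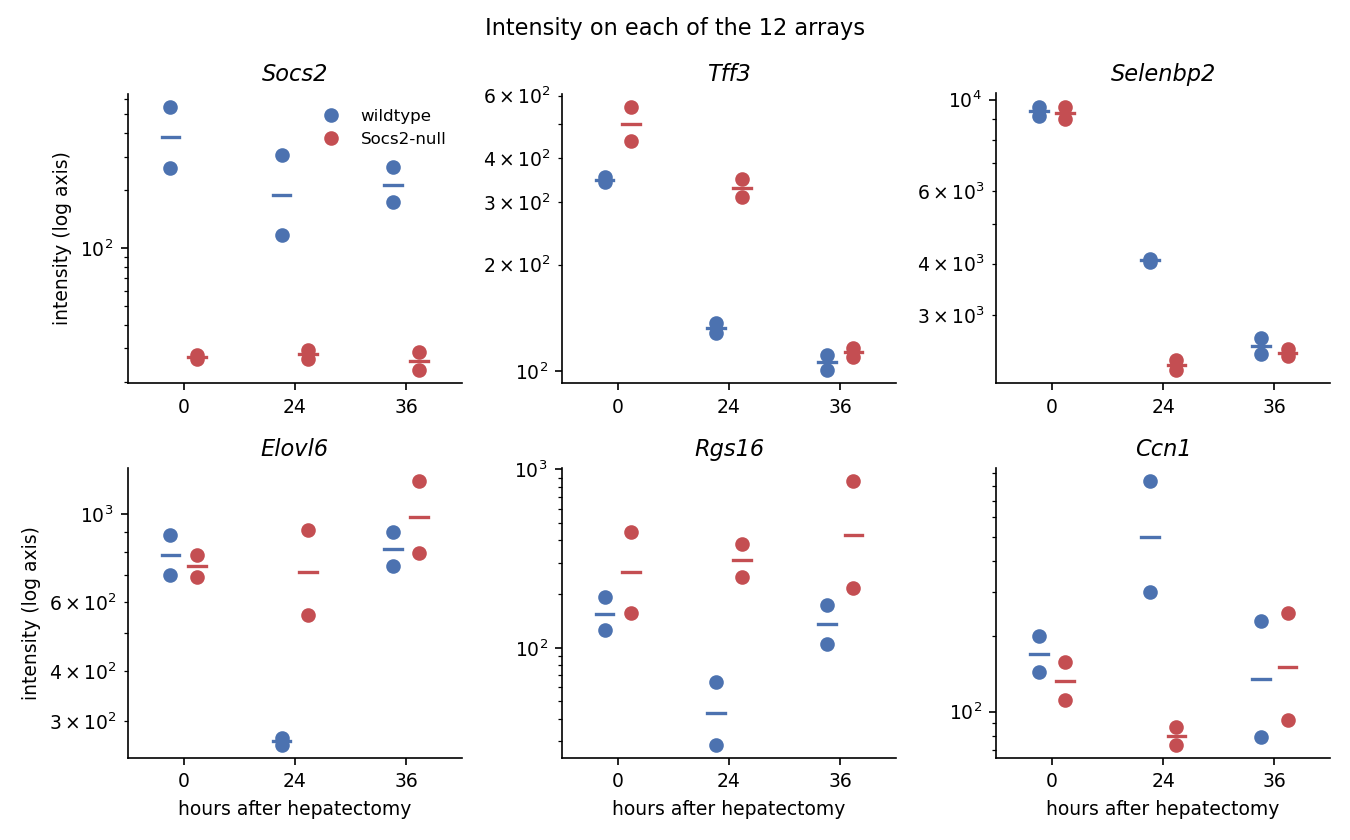
Intensity of 6 genes (log axis) on each of the 12 arrays against hours after hepatectomy, with wildtype pools in blue, Socs2-null pools in red and the group means as bars. At 24 h the genotypes overlap in none of the 6 panels, and for Selenbp2, Elovl6 and Ccn1 they overlap at 0 h and at 36 h.

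Beyond these 2 genes the largest differences are given as values, since none of them passed the threshold (adjusted p from 0.183 to 0.471 for the other 28 of the 15 largest differences in each direction). These are genes with an unadjusted p under 0.01, arrays that did not overlap and at least 1 group over background. Elovl6, the elongase that makes stearate from palmitate, read 271 and 261 in wildtype and 912 and 557 in Socs2-null liver (log2 change 1.37 ± 0.24). A second probe set of Elovl6 stood at 1.30 and the dimmest at -0.52. Mid1ip1, which activates acetyl-CoA carboxylase, read 190.3 and 240.0 against 631 and 359 (1.10 ± 0.25). Acly, which makes cytosolic acetyl-CoA from citrate, read 700.4 and 941 against 1977 and 1235 (0.93 ± 0.28, with its second probe set at 0.87). Sqle, the squalene epoxidase of cholesterol synthesis, read 570.2 and 920.3 against 1163 and 1532 (0.87 ± 0.22). In each of the 4 genes Socs2-null liver at 24 h was higher on both arrays, by unequal amounts.

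The gene with the largest positive difference was Rgs16, an inhibitor of G protein signalling. It read 64.5 and 28.6 in wildtype and 384 and 250.3 in Socs2-null liver (log2 change 2.44 ± 0.70), with the second wildtype array under background. Its second probe set read 60.9 and 49.98 against 141 and 124, a smaller log2 change of 1.06. Atp2b2, a plasma membrane calcium pump, was under background in wildtype liver at 32.9 and 17.8 and read 161 and 96.0 in Socs2-null liver, at least 3.02-fold higher, and its second probe set read 20.8 and 22.1 against 76.4 and 40.2. Cxcl13, a chemokine that attracts B cells, read 91.0 and 63.1 against 158 and 420.5 (1.58 ± 0.43), and its second probe set stood at 1.50. Both Socs2-null pools were above both wildtype pools for these 3 genes, and the Cxcl13 values of the Socs2-null pools lay far apart.

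Other genes with higher values were Cyp39a1, an oxysterol hydroxylase of bile acid synthesis (1.05 ± 0.30), Leap2, a liver-made antagonist of the ghrelin receptor (0.97 ± 0.31), and Ddit4, an inhibitor of mTORC1 signalling (0.93 ± 0.22). St6gal1, which adds sialic acid to plasma glycoproteins, read 426 and 454 in wildtype and 895 and 797 in Socs2-null liver (0.92 ± 0.18), and its second, dimmer probe set stood at 0.23. Bclaf1, a nuclear RNA-processing factor, and Arhgap5 stood at 0.88 ± 0.19 and 0.95 ± 0.20. Their other probe sets gave smaller values, 0.30 for Bclaf1 and 0.44 and 0.32 for Arhgap5. Nedd4, a ubiquitin ligase, stood at 1.05 ± 0.24, but its second probe set stood at 0.25. For Nedd4, Arhgap5 and Bclaf1 the lower wildtype array was replicate 2.

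Among the 15 genes with lower values, Ccn1, a matrix protein gene of the immediate-early class that is induced by growth factors and by YAP, read 836 and 301 in wildtype and 86.6 and 73.7 in Socs2-null liver (log2 change -2.44 ± 0.61), and its second probe set stood at -2.08. At 0 h Ccn1 read 144 and 200.5 in wildtype and 111 and 158 in Socs2-null liver. The stress-responsive factor gene Atf3 read 146 and 125 against 35.9 and 68.6 (-1.19 ± 0.30). Dusp10, a phosphatase of stress-activated kinases, read 103 and 109.8 against 51.5 and 60.4 (-0.77 ± 0.21), though its second, dimmer probe set stood at -0.088. In these 3 genes the wildtype arrays at 24 h were above the wildtype arrays at 0 h, and the Socs2-null arrays at 24 h were nearer to the level at 0 h.

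Hsd3b6, a hydroxysteroid dehydrogenase, read 218 and 305 in wildtype and 160.3 and 45.9 in Socs2-null liver (-1.39 ± 0.38), from a probe set that can bind related genes of its cluster. Slco1a4, an organic anion transporter, read 307 and 678 against 178 and 249 (-1.06 ± 0.32). Sult5a1, a sulfotransferase, read 209 and 200.4 against 92.5 and 98.1 (-0.99 ± 0.16, adjusted p = 0.183). Sec14l4, a lipid-binding protein, stood at -0.96 ± 0.30, Mrnip, a DNA repair factor, at -0.98 ± 0.25 and the adhesion molecule gene Ncam1 at -0.89 ± 0.26. The 5 other probe sets of Ncam1, all dimmer, stood between -0.16 and 0.37. Arhgap21 stood at -0.98 ± 0.27, while its second probe set stood at -0.0014. Slc9a3r2, a scaffold protein of ion transporters, stood at -0.79 ± 0.23 by its brightest probe set and between -0.29 and 0.16 by its 5 others. The inner ear glycoprotein gene Otog and the transcript 4933407O12Rik stood at -0.77 ± 0.17 and -0.87 ± 0.18.

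**Figure D2:**
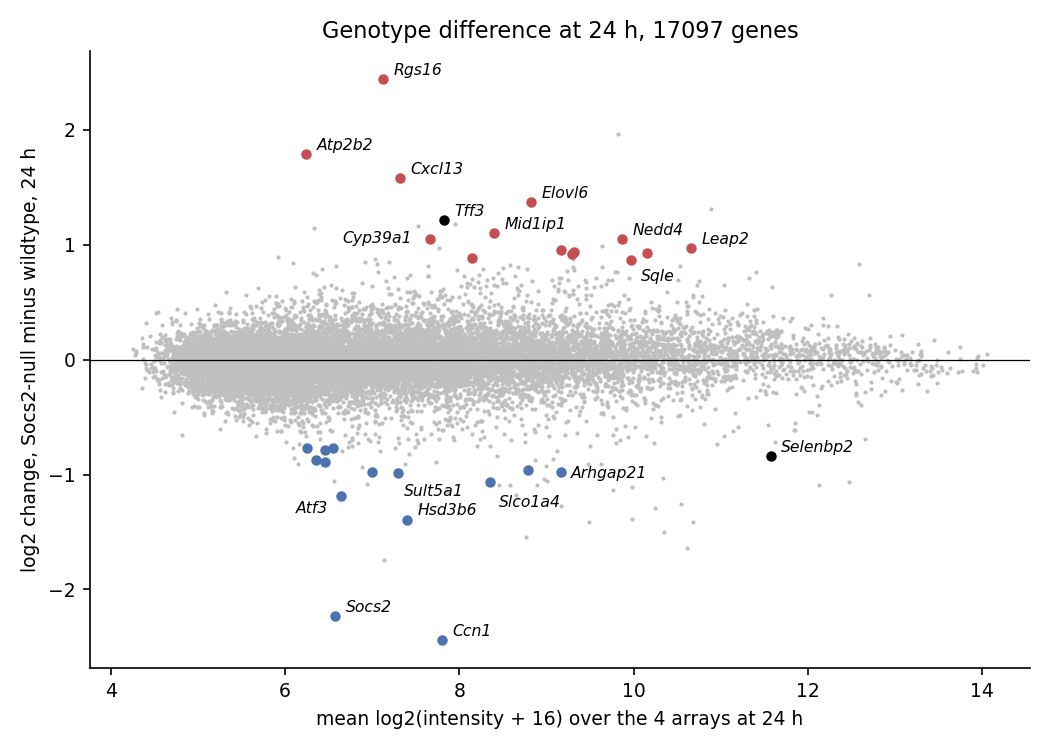
Log2 change of each of 17097 genes at 24 h (Socs2-null minus wildtype) against its mean log2(intensity + 16) over the 4 arrays, with the 15 largest positive differences by the naming rule in red, the 15 largest negative in blue and the 2 genes past the threshold in black. Tff3 and Selenbp2 pass the test at moderate log2 changes of 1.22 and -0.84, while Rgs16 and Ccn1 differ more and do not.

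The lists of growth hormone receptor signalling and of growth hormone and STAT5 targets held no member past the threshold. Of 15 receptor and signalling genes measured, 12 had higher means, against 45.9% of all genes, with a median log2 change of 0.067. At an unadjusted p under 0.05, 0 were higher and 0 lower, against 3.61% and 4.63% of all genes. The receptor gene Ghr read 2134 and 2472 in wildtype and 2956 and 2039 in Socs2-null liver, and the transducer gene Stat5b stood at 0.23 ± 0.16. Of 12 growth hormone and STAT5 targets, 7 had higher means, with a median of 0.080 and 0 with an unadjusted p under 0.05. Igf1, the main growth factor made by liver under growth hormone, read 7101 and 7363 against 6921 and 7321 (-0.023 ± 0.081, 95% interval -0.20 to 0.16). Igfals, whose product holds IGF1 in plasma, read 247 and 269 against 299 and 204, and Cish, another STAT5-induced inhibitor, read 148 and 139 against 78.5 and 170.5. Both Cish and Igfals had the lowest and the highest of the 4 readings within the Socs2-null pair. Igfbp1, an insulin-repressed gene whose product binds IGF1, was higher on both Socs2-null arrays, at 4664 and 4572 against 8607 and 7878 (0.83 ± 0.41), and the cytokine inhibitor gene Socs3 was lower on both, at 529 and 551 against 225 and 458 (-0.72 ± 0.33).

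The promoter of Cish is shown because it carries the STAT5-type motif TTCNNNGAA, searched on both strands, more than once, in a target gene whose groups overlapped at 24 h. It lies at chr9:107296409-107296708 on the plus strand of GRCm38.p6, as given by RefSeq, 250 bases before to 50 after the gene start, with the matches in capitals.
Cish: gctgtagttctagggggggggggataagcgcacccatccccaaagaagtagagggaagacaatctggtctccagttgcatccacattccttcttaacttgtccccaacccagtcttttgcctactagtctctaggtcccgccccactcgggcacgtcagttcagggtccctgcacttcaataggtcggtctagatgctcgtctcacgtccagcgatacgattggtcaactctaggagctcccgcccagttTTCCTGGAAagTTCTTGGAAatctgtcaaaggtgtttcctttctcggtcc
The motif was present in 6 of 16 promoters of the growth hormone and STAT5 targets (37.5%), against 8.3% of all 32851 promoters of that length, where a gene can have several starts. A match is a description of these letters and not a measured binding site.

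Fatty acid synthesis genes had higher means in Socs2-null liver more often than not. Of 22 genes measured 16 had higher means, a share of 72.7% against 45.9% of all genes, with a median log2 change of 0.33 (0.30 in Socs2-null replicate 1 and 0.16 in replicate 2). At an unadjusted p under 0.05, 8 were higher and 2 were lower, against 3.61% and 4.63% of all genes. After adjustment over all genes 0 passed the threshold. Acaca, the acetyl-CoA carboxylase that commits carbon to fatty acids, read 418 and 495 in wildtype and 1023 and 752 in Socs2-null liver (0.92 ± 0.32). Thrsp, a lipogenic regulator, read 1125 and 1262 against 3524 and 2508 (1.31 ± 0.54), and Me1, which supplies NADPH, read 1325 and 1572 against 2604 and 1736 (0.55 ± 0.22). In these 3 genes, as in Acly and Elovl6, Socs2-null replicate 1 was the higher of the pair. Fasn, the fatty acid synthase, read 1491 and 1068 against 1486 and 1579, with overlap, and the desaturase gene Scd1 stood at 0.075 ± 0.13. The triglyceride synthesis genes Dgat2 and Dgat1 stood at 0.37 ± 0.12 and -0.35 ± 0.14, and the elongase gene Elovl5 at -0.28 ± 0.13.

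Within the list Mlxipl, which encodes the glucose-responsive transcription factor ChREBP, read 412 and 484 in wildtype and 1037 and 579 in Socs2-null liver (0.77 ± 0.23). A promoter of Mlxipl, at 1 of its starts, is shown because it alone among those of the fatty acid synthesis genes holds the sterol regulatory element TCACNCCAC, searched on both strands. It lies at chr5:135106641-135106940 on the plus strand of GRCm38.p6, as given by RefSeq, with the match in capitals.
Mlxipl: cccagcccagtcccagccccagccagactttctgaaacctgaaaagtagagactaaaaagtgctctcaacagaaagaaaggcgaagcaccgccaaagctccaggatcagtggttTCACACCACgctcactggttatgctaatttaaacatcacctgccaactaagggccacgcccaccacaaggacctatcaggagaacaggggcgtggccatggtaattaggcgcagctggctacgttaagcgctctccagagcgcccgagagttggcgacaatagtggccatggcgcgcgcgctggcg
Of 22 promoters of these genes 1 held the motif, as did 1 of 23 promoters of the sterol genes and 1 of 26 for the urea cycle list, against 1.24% of all promoters of that length.

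Cholesterol synthesis and sterol regulation genes had a median log2 change of 0.26, with 17 of 22 higher (77.3%, against 45.9% of all genes). The wildtype pools differed here, and without wildtype replicate 1 the median was 0.011. At an unadjusted p under 0.05 (3.61% of all genes higher and 4.63% lower), 3 were higher and 0 lower. Beside Sqle these were Srebf2, the master regulator of sterol synthesis, at 122 and 137 against 171 and 186 (0.42 ± 0.14), and Hsd17b7, which acts late in the pathway, at 653 and 524 against 765 and 995 (0.56 ± 0.20). The lanosterol demethylase gene Cyp51 read 564 and 947 in wildtype and 1141 and 903 in Socs2-null liver, and the isomerase gene Idi1 read 1072 and 1676 against 1938 and 1675. Both had lower values in wildtype replicate 1 than in replicate 2, and the groups overlapped. Genes of fatty acid oxidation, measured in 27 members, had a median of 0.034 with 15 higher. Acadl, a mitochondrial dehydrogenase gene, alone of these had an unadjusted p under 0.05, at 2990.5 and 3074 against 3671 and 3546 (0.25 ± 0.11).

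Gluconeogenesis and glycogen genes had a median log2 change of 0.38, with 11 of 14 higher, against 45.9% of all genes. At an unadjusted p under 0.05, 5 were higher and 0 lower, against 3.61% and 4.63% of all genes. The median belonged mainly to 1 pool, at 0.85 in Socs2-null replicate 1 and 0.025 in replicate 2. The glycogen branching enzyme gene Gbe1 read 542 and 517 in wildtype and 1083 and 694 in Socs2-null liver (0.70 ± 0.18), and Slc2a2, the main hepatocyte glucose transporter, read 1351 and 1325 against 3080.1 and 1521 (0.69 ± 0.24). Slc37a4, which carries glucose 6-phosphate into the endoplasmic reticulum, was higher by a like amount on both arrays, at 1803 and 1576 against 2251 and 2229 (0.41 ± 0.12). The glycogen-targeting phosphatase subunit gene Ppp1r3b and the glycogen synthase gene Gys2 stood at 0.73 ± 0.25 and 0.62 ± 0.24.

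Urea cycle and amino acid catabolism genes had lower means in 25 of 30 cases, against 54.1% of all genes. Their median log2 change was -0.22, with like medians in the pools, -0.21 and -0.27. At an unadjusted p under 0.05, 7 were lower and 0 higher, against 4.63% and 3.61% of all genes. Both Socs2-null arrays lay below both wildtype arrays in 15 of the 30 genes, against 19.1% of all genes. Ass1, which makes argininosuccinate in the urea cycle, read 3576 and 4515 in wildtype and 2209 and 2699 in Socs2-null liver (-0.72 ± 0.17), and Asl, the next enzyme, read 4609.7 and 5099 against 3158 and 3929 (-0.46 ± 0.17). Slc25a15, the mitochondrial ornithine carrier, read 4798 and 4325 against 3063 and 2879 (-0.61 ± 0.19). The alanine aminotransferase gene Gpt and the glyoxylate aminotransferase gene Agxt stood at -0.50 ± 0.15 and -0.50 ± 0.13, and Tdo2 and Aass, which start tryptophan and lysine breakdown, at -0.27 ± 0.10 and -0.49 ± 0.21. In bulk liver RNA, fewer cells of a type and less RNA per cell cannot be told apart.

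Male-biased liver genes had lower means in 18 of 24 cases, against 54.1% of all genes. Their median log2 change was -0.17 (-0.071 in Socs2-null replicate 1 and -0.19 in replicate 2). At an unadjusted p under 0.05, 6 were lower and 0 higher, against 4.63% and 3.61% of all genes. Selenbp2 alone of the 6 passed the threshold. The list, like the others, was chosen with earlier results of these data known. Nudt7, a peroxisomal coenzyme A diphosphatase, read 4631 and 4459.6 in wildtype and 2939 and 2992 in Socs2-null liver (-0.61 ± 0.10, adjusted p = 0.183). Nat8, an acetyltransferase, read 343 and 388 against 249 and 216 (-0.62 ± 0.18), and Moxd1, a monooxygenase-like protein, 144 and 151 against 86.5 and 55.5 (-0.93 ± 0.38). Hsd3b5, a male-specific steroid reductase of mouse liver, read 424 and 575 in wildtype and 451 and 107 in Socs2-null liver, so its lower mean (-1.09 ± 0.56) came from replicate 2. For female-biased genes the median was -0.0076, with 10 of 22 higher, and 7 of the 22 were under background in both groups. The flavin monooxygenase gene Fmo2 read 92.3 and 56.4 against 97.1 and 124 (0.51 ± 0.20).

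Immediate-early genes, the transcription factors and other early products of growth and stress signals, had the lowest median of the 29 pathway lists, -0.38. Of the 19 genes 14 had lower means, against 54.1% of all genes. At an unadjusted p under 0.05, 5 were lower and 2 higher, against 4.63% and 3.61% of all genes. Beside Ccn1 and Atf3, Fos read 404 and 183 in wildtype and 98.7 and 110.3 in Socs2-null liver (-1.26 ± 0.46), Ier2 read 829.8 and 620.3 against 360.0 and 459 (-0.80 ± 0.28), and Jund read 1662 and 1676 against 1229.9 and 1397 (-0.34 ± 0.12). Members with higher values were Dusp1, a phosphatase that shuts off MAP kinases, at 461 and 468 against 1027 and 659 (0.81 ± 0.30), and Fosl2 at 0.29 ± 0.12. Wildtype replicate 1 was the highest of the 4 arrays for Ccn1, Fos and Ier2.

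**Figure D3:**
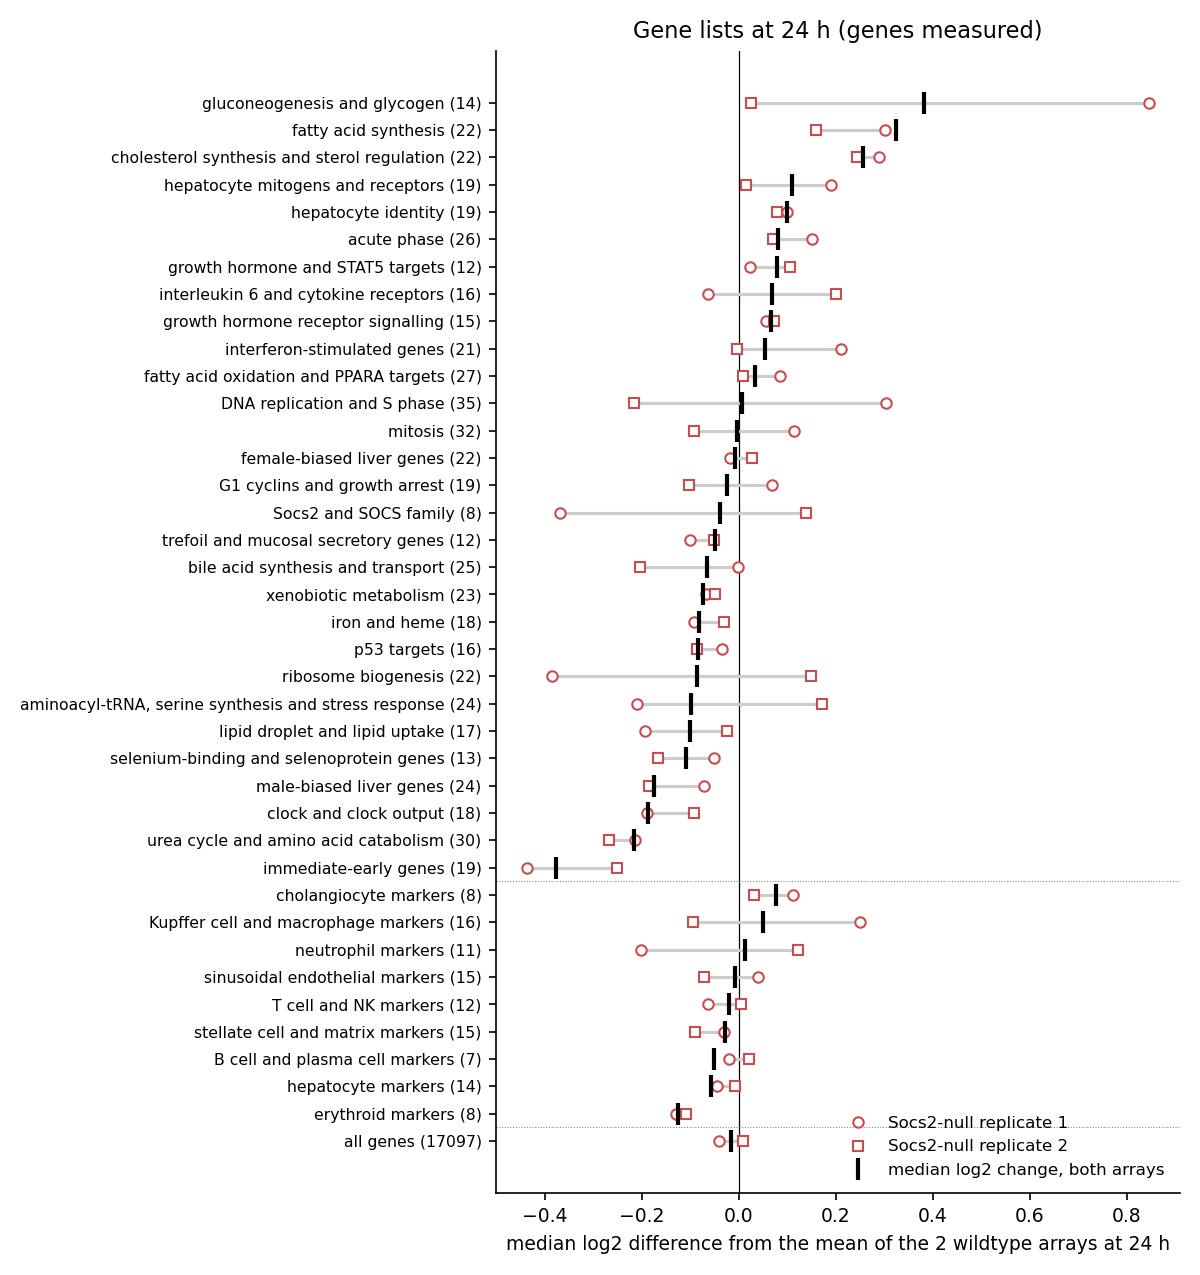
Median log2 difference of 38 gene lists at 24 h from the mean of the 2 wildtype arrays, for each Socs2-null pool (open symbols) and for the mean of the pools (bars), with the number of genes measured in brackets. The urea cycle, immediate-early and sterol lists have both pools on 1 side of 0, while DNA replication, ribosome biogenesis and neutrophil lists have the pools on opposite sides.

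Acute phase genes, whose plasma proteins hepatocytes secrete during inflammation, had higher means in 19 of 26 cases, against 45.9% of all genes. Their median log2 change was 0.082, and both Socs2-null arrays lay above both wildtype arrays in 13 of the 26, against 15% of all genes. At an unadjusted p under 0.05, 4 of the 26 were higher and 0 lower, against 3.61% and 4.63% of all genes. Steap4, a metalloreductase, read 2371 and 1818 in wildtype and 2877 and 4334 in Socs2-null liver (0.76 ± 0.21), ceruloplasmin, encoded by Cp, read 3190.4 and 3169 against 4416 and 3799 (0.36 ± 0.11), and the serum amyloid gene Saa3 read 397 and 491 against 978 and 3189 (1.96 ± 0.62). Among 16 interleukin 6 and cytokine receptor genes, Il6ra, the ligand-binding receptor chain for interleukin 6, read 494 and 531 against 856 and 757 (0.64 ± 0.19). Of 21 interferon-stimulated genes 13 had higher means (median 0.055, with 0.21 and -0.0035 in the pools), with the GTPase gene Igtp at 458 and 396 against 849.6 and 589 (0.71 ± 0.21).

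Hepatocyte identity genes, mostly transcription factors, had higher means in 15 of 19 cases, against 45.9% of all genes, with a median of 0.10. At an unadjusted p under 0.05, 6 were higher and 1 lower, against 3.61% and 4.63% of all genes. Nr5a2, a nuclear receptor that controls bile acid and cholesterol genes, read 311 and 238 in wildtype and 519 and 473 in Socs2-null liver (0.83 ± 0.18). Foxa3 read 462 and 462 against 737 and 681 (0.60 ± 0.13), and the homeobox gene Prox1 326 and 227 against 495 and 395 (0.67 ± 0.17). The pioneer factor gene Foxa1 had lower values, 482 and 791 against 289 and 378 (-0.87 ± 0.33). The list held members in both directions. The hepatocyte markers proper, measured in 14 members, had a median of -0.056. Of 18 clock and clock output genes (median -0.19) 11 had lower means, down to -0.91, against 54.1% of all genes with a lower mean. Hlf, Rora and Npas2 stood at 0.80 ± 0.22, 0.64 ± 0.18 and 0.84 ± 0.24, and the related output gene Tef at -0.51 ± 0.20.

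The remaining pathway lists are given beside the shares of all genes. Of all genes 54.1% had a lower mean, and 3.61% were higher and 4.63% lower at an unadjusted p under 0.05. Of 25 bile acid synthesis and transport genes 16 had lower means (median log2 change -0.066, at -0.0021 in Socs2-null replicate 1 and -0.20 in replicate 2), with 2 higher and 2 lower at that p. Nr1h4, which encodes the bile acid receptor FXR, read 528 and 672 in wildtype and 787 and 802 in Socs2-null liver (0.41 ± 0.18), and the bile acid reductase gene Akr1d1 read 285 and 398 against 295 and 166 (-0.57 ± 0.24), with overlap. Xenobiotic metabolism genes, 23 in number, had a median of -0.073, and the aryl hydrocarbon receptor gene Ahr alone reached that p, at 470.4 and 671 against 830.4 and 844 (0.56 ± 0.21). Of 17 lipid droplet and lipid uptake genes 12 had lower means, among them Fitm1, a lipid droplet formation factor, at 342 and 394 against 240.0 and 187 (-0.75 ± 0.22). Mttp, which loads lipid onto lipoproteins, was higher on both Socs2-null arrays, at 1784 and 1727 against 2406 and 2097 (0.35 ± 0.13). Among 19 hepatocyte mitogens and receptors (median 0.11, with 0.19 and 0.015 in the pools), the hepatocyte growth factor gene Hgf read 50.02 and 46.2 against 70.9 and 61.8 (0.36 ± 0.12) and the activin subunit gene Inhba 199 and 154 against 408 and 241 (0.78 ± 0.30). Of 16 p53 targets 12 had lower means (median -0.083), while Trp53inp1 was higher on both Socs2-null arrays, at 541 and 639.8 against 1283 and 843 (0.81 ± 0.26). For 24 genes of aminoacyl-tRNA, serine synthesis and stress response the pools lay on opposite sides of wildtype, with medians of -0.21 and 0.17. The serine synthesis gene Psph read 192 and 286 against 413 and 370.1 (0.70 ± 0.25), and the stress factor gene Atf4 read 2334 and 2003 against 1104 and 1931 (-0.56 ± 0.23). The 18 iron and heme genes and the 19 genes of G1 cyclins and growth arrest had medians of -0.081 and -0.025, and the 8 SOCS family genes, Socs2 included, -0.039.

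Genes of cell division had no common direction at 24 h, and the Socs2-null pools lay on opposite sides of wildtype. The median log2 change of 35 DNA replication genes was 0.0076. Of these, 29 were above the wildtype mean in Socs2-null replicate 1 (median 0.30) and 6 in replicate 2 (median -0.22). The ribonucleotide reductase gene Rrm2 read 191 and 174 in wildtype and 357 and 199 in Socs2-null liver (0.51 ± 0.21), the replicative helicase gene Mcm3 55.2 and 49.7 against 97.4 and 66.6 (0.50 ± 0.19), and the thymidine kinase gene Tk1 115 and 173 against 121 and 53.7 (-0.69 ± 0.27). The sliding clamp gene Pcna read 1432 and 1350.3 against 1501 and 1313, with overlap. Ccnd1, the G1 cyclin of hepatocytes leaving quiescence, was higher on both Socs2-null arrays, at 524 and 558 against 915 and 833 (0.68 ± 0.49, 95% interval -0.43 to 1.78). Of 32 mitosis genes 11 were under background in both groups, and their median was -0.0033. Ribosome biogenesis genes had the opposite order of pools, with 0 of 22 above the wildtype mean in replicate 1 (median -0.38) and 20 of 22 in replicate 2 (median 0.15).

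The Socs2-null pools at 24 h differed from each other more than the wildtype pools did. Between them 203 genes differed by over 1 on the log2 scale, 127 higher and 76 lower in replicate 2, against 57 between the wildtype pools. Among those higher in replicate 2 were the calprotectin genes S100a8 and S100a9, abundant in neutrophils. S100a8 read 96.3 and 655 on the Socs2-null arrays and 139 and 81.1 on the wildtype arrays, and S100a9 read 127 and 953 against 186 and 117. The chemokine gene Cxcl1 read 693 and 2638 in the Socs2-null pools and 795 and 536 in wildtype. For some genes replicate 1 was the array that stood apart. The endotoxin coreceptor gene Cd14 read 342 and 2591 against 2353 and 2243 in wildtype, the hepcidin gene Hamp2 344 and 2823 against 3050.3 and 2334, and the phosphodiesterase gene Gpcpd1 256 and 2196 against 3320.4 and 1418. Genes lower in replicate 2 included Hsd3b5 and Hsd3b3, of steroid metabolism, with Hsd3b3 at 491 and 120.0 against 467 and 628 in wildtype. They also included the glycogen-targeting subunit gene Ppp1r3c, at 1445 and 382 against 735 and 562, and G6pc, which releases glucose from hepatocytes, at 5074 and 1605 against 2067 and 2328. These genes were picked after their values were seen and carry no test.

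**Figure D4:**
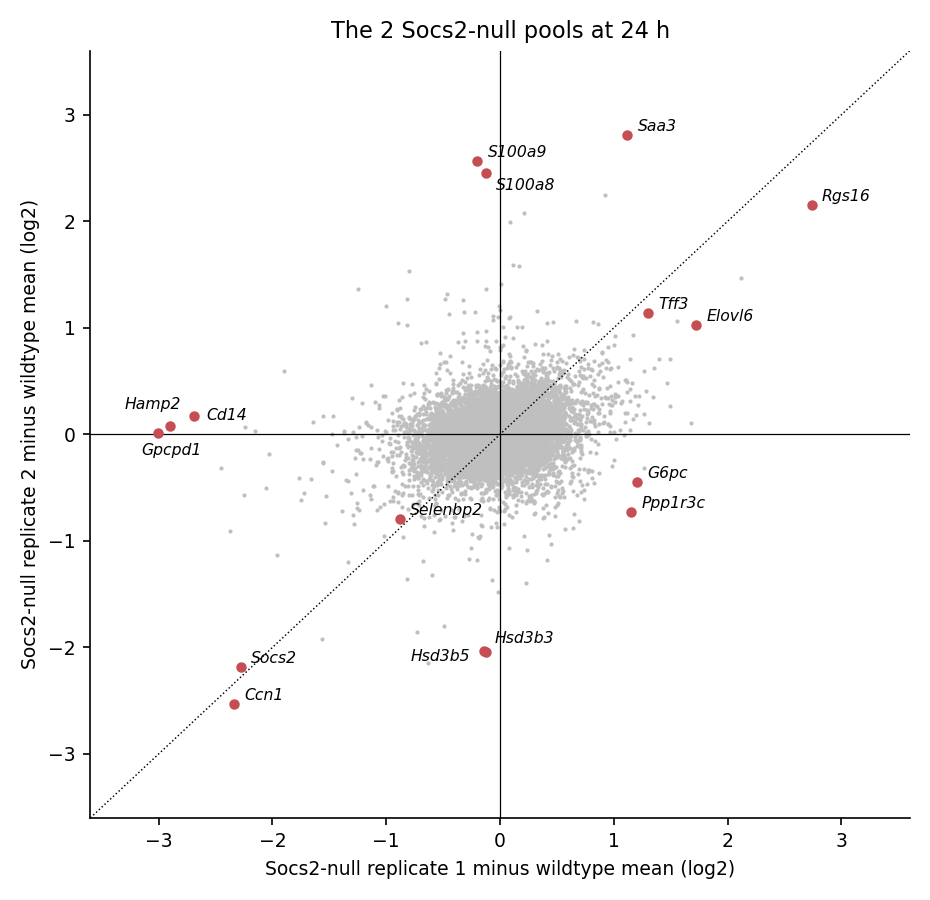
Log2 difference of each Socs2-null pool at 24 h from the wildtype mean, replicate 2 against replicate 1, for 17097 genes, with named genes in red and equal differences on the dotted line. Tff3, Selenbp2, Socs2 and Ccn1 lie near the line, while S100a8, S100a9, Cd14, Hamp2, Gpcpd1, Hsd3b3 and Hsd3b5 lie near 0 for 1 pool and far from it for the other.

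Markers of other liver cell types are given for the whole lists, and their part in the results was not tested. Of all genes 45.9% had higher and 54.1% lower means. At an unadjusted p under 0.05, 3.61% of all genes were higher and 4.63% lower. For 8 cholangiocyte markers the summed intensity was 828 and 869 on the wildtype and 917 and 828 on the Socs2-null arrays, with a median log2 change of 0.077 and 6 of 8 higher. The cytokeratin genes Krt19 and Krt7, which mark the biliary epithelium, stood at 0.077 ± 0.15 and 0.060 ± 0.11. Both turned their sign in some of the alternatives tried. For 11 neutrophil markers the sums were 812 and 643 in wildtype and 588 and 2165 in Socs2-null liver, with S100a8 and S100a9 of Socs2-null replicate 2 making up most of its sum. Of 16 Kupffer cell and macrophage markers 11 had higher means, with median log2 differences of 0.25 in Socs2-null replicate 1 and -0.095 in replicate 2. Their sums were 8542 and 8384 in wildtype and 10615 and 7798 in Socs2-null liver. For 15 stellate cell and matrix markers they were 5297 and 5154 in wildtype and 5168 and 5334 in Socs2-null liver, with the smooth muscle actin gene Acta2 at 291 and 291 against 195 and 159 (-0.67 ± 0.14), or 0.25 by its probe set that is not marked as cross-hybridizing. All 8 erythroid markers had lower means, with a median of -0.12 and 0 at an unadjusted p under 0.05, and 3 were under background in both groups. Their sums were 3556 and 4332 in wildtype and 3987 and 2830.1 in Socs2-null liver. Medians of the sinusoidal endothelial, T cell and NK, and B cell and plasma cell lists were -0.0077, -0.020 and -0.051. Under background in both groups were 7 of 12 T cell and NK markers and 4 of 7 B cell and plasma cell markers. The hepatocyte markers of the tissue were bright, with albumin, encoded by Alb, at 17171 and 16454 in wildtype and 15822 and 16832 in Socs2-null liver.

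The genotype differences at 0 h and 36 h were measured on separate arrays. At 0 h 0 genes (0.0%) passed the threshold in limma, with 847 at an unadjusted p under 0.05, and at 36 h 4 genes (0.0234%), Cpt1a, Cry1, Dbp and Nudt7, passed. The difference at 24 h was tested against that at 0 h and against that at 36 h, and 0 genes (0.0%) passed in either in limma, with 646 and 873 at an unadjusted p under 0.05. With replicate 1 of a group left out, the count against 0 h was 12 for Socs2-null at 0 h, 6 for Socs2-null at 24 h and 2 (Nedd4 and Ramp2) for wildtype at 24 h. Against 36 h it was 1 (Ivl) without Socs2-null 36 h replicate 2. For Selenbp2 the difference at 24 h minus that at 0 h was -0.83 ± 0.13 (adjusted p = 0.658) and minus that at 36 h -0.79 ± 0.13 (adjusted p = 0.636). For Tff3 these were 0.71 ± 0.19 (adjusted p = 1.00) and 1.14 ± 0.19 (adjusted p = 0.636).

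Values at the other times differed between genes. Elovl6 stood at -0.094 ± 0.24 at 0 h and 0.26 ± 0.24 at 36 h, and Ccn1 at -0.32 ± 0.61 and 0.14 ± 0.61. Mid1ip1, Acly, Sqle and Ddit4 stood near 0 or below at 0 h, at -0.21, -0.033, 0.0012 and -0.023, and at 1.16, 0.95, 0.78 and 1.31 at 36 h. By their brightest probe sets, Sec14l4, Slco1a4, Arhgap21 and Mrnip had lower values at all 3 times. They stood at -0.98, -0.43, -0.64 and -0.69 at 0 h and -0.71, -1.44, -0.39 and -0.52 at 36 h. The second probe set of Arhgap21, at -0.0014 for 24 h, had overlapping groups at each time. Wildtype pools read 356 and 343 for it at 0 h, the Socs2-null pools 332 and 391. Its 36 h readings were 205 and 311 against 333 and 277.

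By the same criteria as for the largest differences, without the limit of 15, 148 genes had higher and 150 lower values at 24 h. At 36 h 108 of the 148 (73.0%) again had a higher mean, against 47.6% of all genes, and 113 of the 150 (75.3%) a lower one, against 52.3%. Both Socs2-null arrays lay above both wildtype arrays at 36 h in 74 of the 148 (50%, against 15.2% of all genes) and below them in 66 of the 150 (44.0%, against 17.6%). They lay apart the other way in 16 of the 148 and 11 of the 150. At 0 h 80 of the 148 (54.1%) had a higher mean, against 37.9% of all genes, and 120 of the 150 (80.0%) a lower one, against 62.1%. The arrays at 0 h lay apart the same way in 33 of the 148 (22.3%, against 13.9% of all genes) and in 74 of the 150 (49.3%, against 27.9%). They lay apart the other way in 18 and 6. The limma p that chose these genes used the spread within all 6 groups, which favours genes with close pairs at 0 h and 36 h. Arrays lie apart more readily in such genes. The shares of all genes also include the 3912 genes under background in both 24 h groups. The shares at the other times thus carry no test. The median log2 change of the 148 genes was 0.0062 at 0 h and 0.16 at 36 h, and that of the 150 was -0.13 and -0.11, against medians of all genes of -0.037 and -0.0081.

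**Figure D5:**
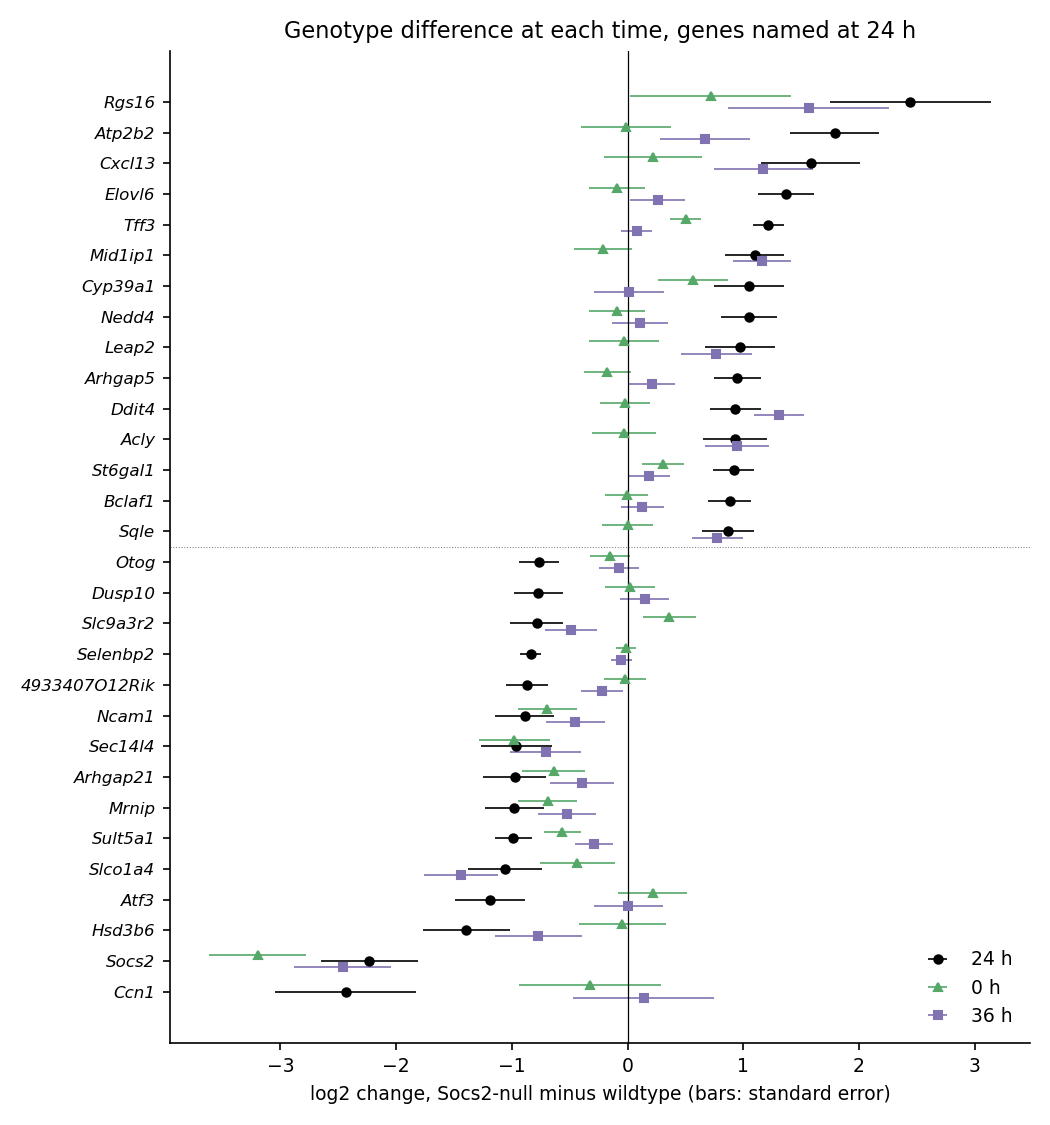
Log2 change between the genotypes at 24 h (black), 0 h (green) and 36 h (purple) for the 15 genes with the largest positive and the 15 with the largest negative differences at 24 h, with standard errors as bars. The genes were chosen on the 24 h values, and Mid1ip1, Ddit4 and Acly have like values at 36 h while Elovl6, Tff3, Selenbp2 and Ccn1 lie nearer to 0 there.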

How the data were processed

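RNA of 12 pooled liver samples was measured on Affymetrix mouse arrays, and each array's group was taken from its label. The values the authors deposited are intensities from 1 to 24717, not logged, with array medians of 43.5 to 52.3. How the authors normalized the deposited intensities is not given in the sources used here.

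Of 45141 probe sets, 104 were controls, 28898 had 1 gene in the platform annotation, 551 had several and 15588 had none. Of those with 1 gene, 28689 matched the reference gene table, and 0 symbols were updated. For each of the 17097 genes the brightest probe set by mean log2(intensity + 16), where 16 is the pseudocount, was used, and 7180 genes had several. limma 3.58.1 in R 4.3.3, with statmod 1.5.0, fitted a mean for each of the 6 groups over all 12 arrays, with 6 residual degrees of freedom, a trend and robust moderation, and Benjamini-Hochberg adjustment over all genes at 0.05. The procedure was also tested on simulated data. Figures were drawn with matplotlib 3.10.9 in Python 3.11.15.

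Described genes were Socs2, those past the threshold, the 15 largest differences in each direction (unadjusted p under 0.01, arrays apart, 1 group over background), up to 5 members of each of 38 lists by the smallest p, and members needed to say what a list holds. Genes singled out for the difference between the pools were chosen after their values were seen. Genes and lists were chosen with earlier results of these data known. The lists held 661 measured genes of 747 written. Promoters are from RefSeq, at GRCm38.p6.

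Alternatives were quantile normalization, median centring, other pseudocounts, filters on dim genes, the mean of a gene's probe sets, no cross-hybridizing probe sets, plain moderation, array weights, the replicate number as a block, fewer arrays and each array left out in turn. A covariate for the hybridization controls and the crossed block were added after seeing the data.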

Additional observations from a re-analysis of the deposited data

How the results depend on the processing

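Of 26 alternatives, 12 left out 1 array, and where that left a group with 1 array, the lone array was assumed to vary like the other groups. The 2 genes that passed at 24 h became 1 (Tff3) without cross-hybridizing probe sets, where Selenbp2 was not tested, 4 (with Hsd3b6 and Tk1) with the hybridization control covariate and 0 with only the arrays compared. With 1 array left out the count ran from 0 to 55. For the difference from 0 h these counts ran from 0 to 12, and for the difference from 36 h from 0 to 1. Under the other alternatives tried, the replicate block included, Tff3 and Selenbp2 both passed at 24 h and 0 genes passed for the differences between times. The deviations of same-numbered arrays correlated between -0.50 and 0.35, with both signs, and the main fit did not take the replicate numbers as pairs. These correlations cannot tell whether pools were handled in sets. For the 24 h groups the correlation was -0.26, and with the numbers crossed 2 genes passed. Of the genes given as values, Elovl6, Mid1ip1, Mlxipl, Gbe1, Slc2a2, Npas2, Rrm2, Ncam1 and 4933407O12Rik passed without Socs2-null 24 h replicate 2, Hsd3b6 without Socs2-null 24 h replicate 1, and Nedd4, Arhgap5 and Bclaf1 without wildtype 24 h replicate 1. Of 99 genes with a printed log2 change, 5 turned their sign in at least 1 alternative, and none of these passed the test. Acta2 stood at 0.25 without cross-hybridizing probe sets. Igf1 stood at 0.026 with median centring and from -0.063 to 0.018 with 1 array left out. With the hybridization control covariate Krt19 stood at -0.15 and Krt7 at -0.0038. With 1 array left out Krt19 ran from -0.10 to 0.26, Krt7 from -0.019 to 0.14 and Stat5b from -0.028 to 0.50. The cause was not tested for any of these. Of the 38 lists 19 kept the sign of their median in every alternative. Among these, the list median ran from 0.16 to 0.37 for fatty acid synthesis, 0.011 to 0.45 for the sterol genes, -0.31 to -0.17 for the urea cycle and -0.53 to -0.15 for immediate-early genes. Among the 19 that did not, it ran from -0.0037 to 0.16 for growth hormone receptor signalling, -0.0035 to 0.21 for interferon-stimulated genes, -0.00094 to 0.085 for fatty acid oxidation, -0.063 to 0.24 for interleukin 6 and cytokine receptors, -0.22 to 0.30 for DNA replication, -0.38 to 0.15 for ribosome biogenesis, -0.20 to 0.55 for neutrophil markers and -0.097 to 0.25 for Kupffer cell markers. For the 3912 genes under background in both groups at 24 h the signal is too low for a fold.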
